A study of Mus musculus with 6 samples.

Results

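The 10 genes described here encode Fc receptors, their signalling adaptors and surface or lysosomal proteins by which macrophages and other myeloid cells are recognized. They are Fcgr1, Fcgr3, Fcgr2b, Fcer1g, Tyrobp, Trem2, Adgre1, Itgam, Cd68 and Cd14. A probe set was taken where the platform annotation named 1 gene and that gene was among the 10. This gave 16 of the 45037 probe sets tested, for 10 of 18193 genes. Each gene was read at its brightest probe set, the one with the highest mean over the 6 arrays, and its other probe sets were set beside it.

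The RNA came from endothelial cells of the mammary gland, sorted with an antibody to CD31 from 9 week old FVB/N mice, and 1 Affymetrix mouse expression array was run per sample. The deleted group had 3 samples of the genotype PyMT;Fsp-Cre;Ets2db/loxP and the control group had 3 samples of PyMT;Ets2db/loxP, which the study calls biological replicates. All mice of both groups carried the PyMT oncogene, which drives mammary tumors, and 1 conventional knockout allele of the transcription factor Ets2 (Ets2db, without the DNA-binding domain) opposite a conditional allele (loxP). The groups thus differed in Fsp-Cre, a recombinase driven by the promoter of Fsp1 (S100a4) and used to delete Ets2 in fibroblasts. The comparison asked how Ets2 in the fibroblasts of a tumor bears on the transcripts of nearby endothelial cells. Values are the authors' log2 signals from the Robust Multichip Average method (RMA), and each difference given is deleted minus control in group means on that scale. The signals of different probe sets do not order the abundance of their transcripts.

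Fc receptors bind the constant part of antibodies and so couple antibody-coated particles to phagocytes. Activating receptors signal through a tyrosine motif (ITAM) in an adaptor such as Fcer1g or Tyrobp, which recruits the kinase Syk, whereas Fcgr2b carries an inhibitory motif (ITIM) that recruits phosphatases. Tumors of the mammary gland hold many macrophages, and CD31 itself is also carried by platelets and by a range of leukocytes. In sorted bulk samples, fewer myeloid cells and less of a transcript per cell cannot be told apart.

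Control replicate 3 stood apart from the other arrays. On the first principal component, which held 42.0% of the variance, the deleted arrays lay between -36.2 and 35.8, against -37.1 and -3.56 for the other control arrays and 70.2 for control replicate 3. The 3' probe set of Gapdh exceeded the 5' one, a measure that moves with RNA quality, by 0.78 to 1.01 on the deleted arrays, against 0.75 and 0.88 on the other control arrays and 1.31 on control replicate 3. Differences of the 10 genes and medians of lists are therefore also given without this array, and so are named genes of the lists where it moved the value by over 1.5 times or turned its sign. Ets2 itself, read at its brightest probe set, averaged 14.41 ± 0.10 in deleted samples and 14.38 ± 0.12 in control samples (SD, n = 3 each). All 12 endothelial markers had a mean above the median of all probe sets, 7.03, and so did all 7 pan-leukocyte and all 7 epithelial markers.

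The upstream sequences of 3 genes are shown, out of those with a promoter sequence on hand. Adgre1, which had the largest difference, and Tyrobp had no such sequence. Fcgr2b and Cd68 were the genes whose groups did not overlap, and Fcgr1 had the larger difference among the activating receptors. Each run is the 250 bases before the gene's start in RefSeq (GRCm38.p6), on the minus strand, at chr1:170976072-170976321 for Fcgr2b, chr11:69666171-69666420 for Cd68 and chr3:96293970-96294219 for Fcgr1. Capitals mark GAGGAA, the core bound by the myeloid Ets factor PU.1, on either strand (TTCCTC on the other), and TGANTCA, the letters of AP-1.
Fcgr2b: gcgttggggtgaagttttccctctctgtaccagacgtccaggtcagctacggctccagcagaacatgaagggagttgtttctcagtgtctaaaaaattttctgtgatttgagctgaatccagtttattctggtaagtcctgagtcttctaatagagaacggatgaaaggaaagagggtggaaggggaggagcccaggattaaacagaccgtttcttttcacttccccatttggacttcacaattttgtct
Cd68: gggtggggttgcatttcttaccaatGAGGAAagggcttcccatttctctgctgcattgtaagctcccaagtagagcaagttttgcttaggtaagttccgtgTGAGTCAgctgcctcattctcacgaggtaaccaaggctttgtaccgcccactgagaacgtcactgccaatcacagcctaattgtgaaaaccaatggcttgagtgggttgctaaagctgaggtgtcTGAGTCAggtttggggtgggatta
Fcgr1: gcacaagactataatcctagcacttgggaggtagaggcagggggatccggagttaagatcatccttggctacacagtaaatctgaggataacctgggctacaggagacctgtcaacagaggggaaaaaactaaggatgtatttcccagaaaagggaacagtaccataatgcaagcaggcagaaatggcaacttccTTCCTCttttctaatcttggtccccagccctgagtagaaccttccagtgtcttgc
These letters were absent from the Fcgr2b run. Cd68 held GAGGAA at 225 bases before the start and TGAGTCA at 149 and 24 bases before it, whereas Fcgr1 held TTCCTC at 55 bases before it.

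RefSeq promoter windows of 300 bases, 250 before and 50 after the start, were on hand for 7 of the 10 genes, namely Fcgr1, Fcgr2b, Fcgr3, Fcer1g, Trem2, Itgam and Cd68. Both strands were searched. GAGGAA was found in 5 of the 7 windows (Fcgr1, Fcgr3, Trem2, Itgam and Cd68) and in 28.3% of 32851 promoters. In Fcgr3 it lay 6 or 15 bases before the 2 starts listed, in Trem2 40 bases before the start and in Itgam 84 and 15 bases before and 33 bases after it. The longer PU.1 form AGAGGAAGT, which contains GAGGAA, was in 0 of 7 and in 1.0% of all promoters. CCGGAAGT, a form used by other Ets factors, was likewise in 0 of 7, against 3.89% of all promoters. TGANTCA was in 2 of 7 (Cd68 and Trem2) and 7.81% of all. The C/EBP letters TTGCNNAA were in 3 of 7 (Fcgr3, Trem2 and Cd68) and 10.8% of all, whereas their stricter form TTGCGCAA was in 0 of 7 and 0.183% of all. TATAAA was in 0 of 7, against 13.6% of all. A match shows only that these letters are there.

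Of the 10 genes, 9 were lower in deleted samples than in control samples and 1, Itgam, was slightly higher. The median of their differences was -0.34, against 0.0042 over all 18193 genes, of which 49.1% were below 0. No gene of the 10 passed the test. With limma's moderated test and Benjamini-Hochberg adjustment, 0 of 45037 probe sets passed an adjusted p of 0.05 (0%), and the smallest adjusted p among the 10 genes was 0.9999. At an unadjusted p under 0.05 limma gave 934 probe sets, and an unmoderated test with unequal variances gave 801 and 0 after adjustment. At the study's thresholds, a fold change over 2 and p under 0.05, 0 of the 10 genes were called, against 58 probe sets (0.129%). Precision was limited by the number of arrays, with 95% intervals that reached 0.45 to either side of a difference in the median.

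**Figure D1:**
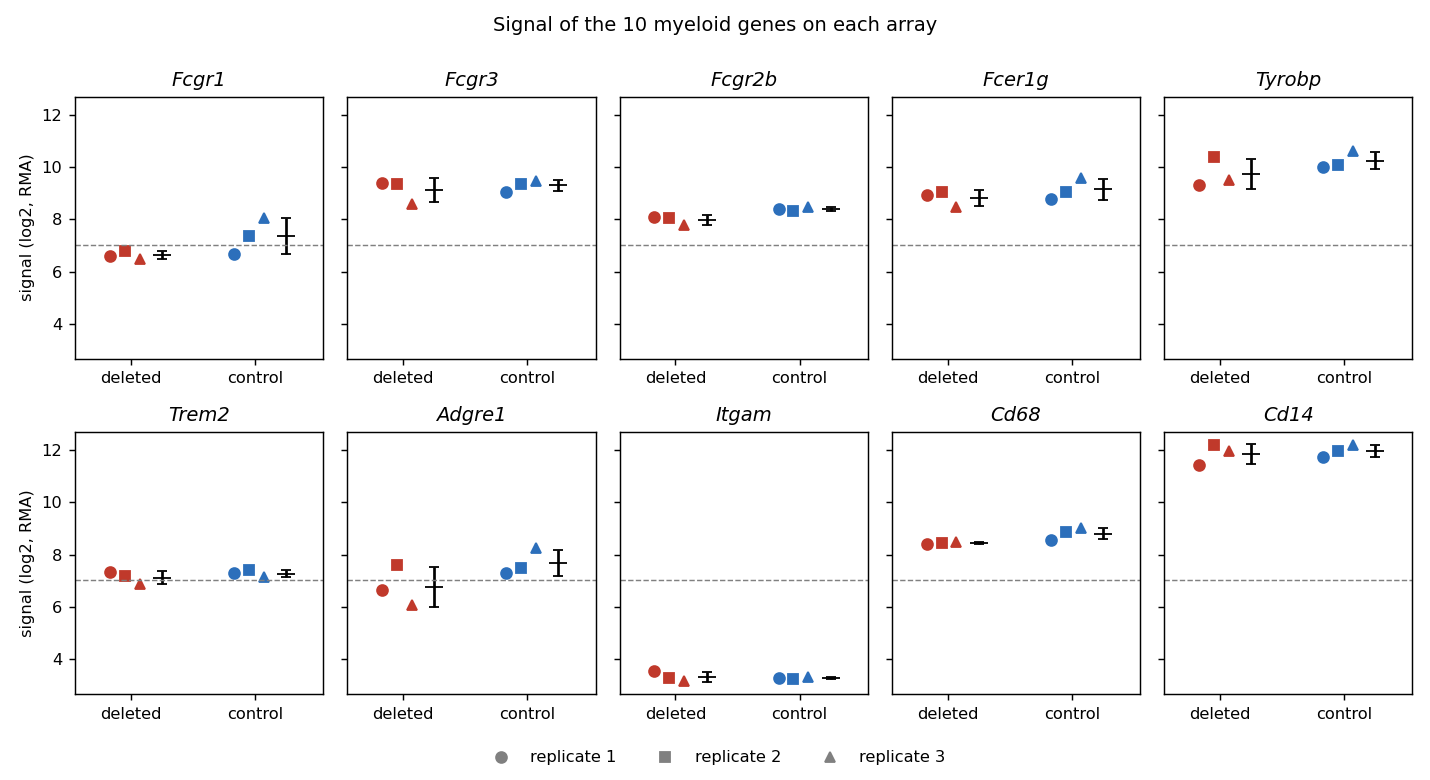
Log2 RMA signal (y axis) of the 10 genes on each array, with the deleted arrays in red on the left and the control arrays in blue on the right of each panel. Marker shapes give the replicate number, black bars the mean and SD, and the dashed line the median of all probe sets (7.03). Fcgr2b and Cd68 are the panels in which every deleted array lies below every control array.

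Fcgr1 encodes the high-affinity receptor for IgG, and lies on chromosome 3. Its signal was 6.61, 6.80 and 6.48 in deleted samples, against 6.70, 7.35 and 8.05 in control samples. The deleted arrays lay close together, whereas the control arrays were spread out, with control replicate 1 inside the range of the deleted ones. The means were 6.63 ± 0.16 in deleted samples and 7.37 ± 0.68 in control samples (SD, n = 3 each), a difference of -0.73 (SE 0.32, 95% interval -1.49 to 0.031) or 1.66-fold. It was -0.39 without control replicate 3. The gene's dimmer probe set ran the other way, at 5.25, 4.70 and 4.91 in deleted samples and 4.93, 4.27 and 5.10 in control samples, with a difference of 0.19 (SE 0.25). The 2 probe sets of Fcgr1 therefore did not share a direction.

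Fcgr3 encodes a low-affinity receptor for IgG immune complexes, which needs Fcer1g to reach the surface. It read 9.40, 9.37 and 8.59 in deleted samples, against 9.04, 9.37 and 9.48 in control samples. The groups overlapped, and deleted replicate 3 was the low array. The difference was -0.18 (SE 0.25, 95% interval -0.77 to 0.41). It was -0.085 without control replicate 3 and turned to 0.086 without deleted replicate 3. Fcgr1 and Fcgr3, the activating receptors, both had a lower mean in deleted samples at their brightest probe sets, and neither passed the test.

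Fcgr2b, on chromosome 1 close to Fcgr3 and Fcer1g, encodes the inhibitory receptor for IgG. In the mouse it is known from macrophages, from B cells and from the sinusoidal endothelium of the liver. Its brightest probe set read 8.11, 8.06 and 7.78 in deleted samples, against 8.41, 8.33 and 8.46 in control samples. Every deleted array lay below every control array. The means were 7.98 ± 0.18 in deleted samples and 8.40 ± 0.066 in control samples (SD, n = 3 each), a difference of -0.42 (SE 0.15, 95% interval -0.76 to -0.072) or 1.34-fold. Fcgr2b was the gene of the 10 with an unadjusted p under 0.05, namely 0.024 with an adjusted p of 0.9999 by limma. Over all genes, 1.07% had an unadjusted p under 0.05 and were lower in deleted samples. The difference was -0.39 without control replicate 3 (unadjusted p = 0.057) and -0.32 without deleted replicate 3 (unadjusted p = 0.085).

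Fcgr2b was covered by 5 probe sets, and in 4 of them the groups did not overlap. The second brightest read 7.99, 8.07 and 7.68 in deleted samples, against 8.22, 8.25 and 8.26 in control samples, a difference of -0.33 (SE 0.15). A further one read 6.94, 7.14 and 6.88 in deleted samples and 7.39, 7.34 and 7.52 in control samples, with a difference of -0.43 (SE 0.14). The fourth read 6.93, 6.84 and 6.76 in deleted samples, against 7.27, 7.17 and 7.12 in control samples, with a difference of -0.35 (SE 0.13). These 4 probe sets thus put the deficit of the deleted arrays between -0.43 and -0.33. The fifth probe set was near the lower end of the scale (2.31), at 2.58 to 2.83 in deleted samples and 2.72 to 2.92 in control samples, and its groups overlapped. The probe sets read the same RNA, and 3 of the 5 were designed on the same sequence record, so they are no independent measurements. The ectodomains of Fcgr2b and Fcgr3 are alike in sequence, and cross-hybridization between them was not tested. Fcgr3 itself overlapped between the groups.

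**Figure D2:**
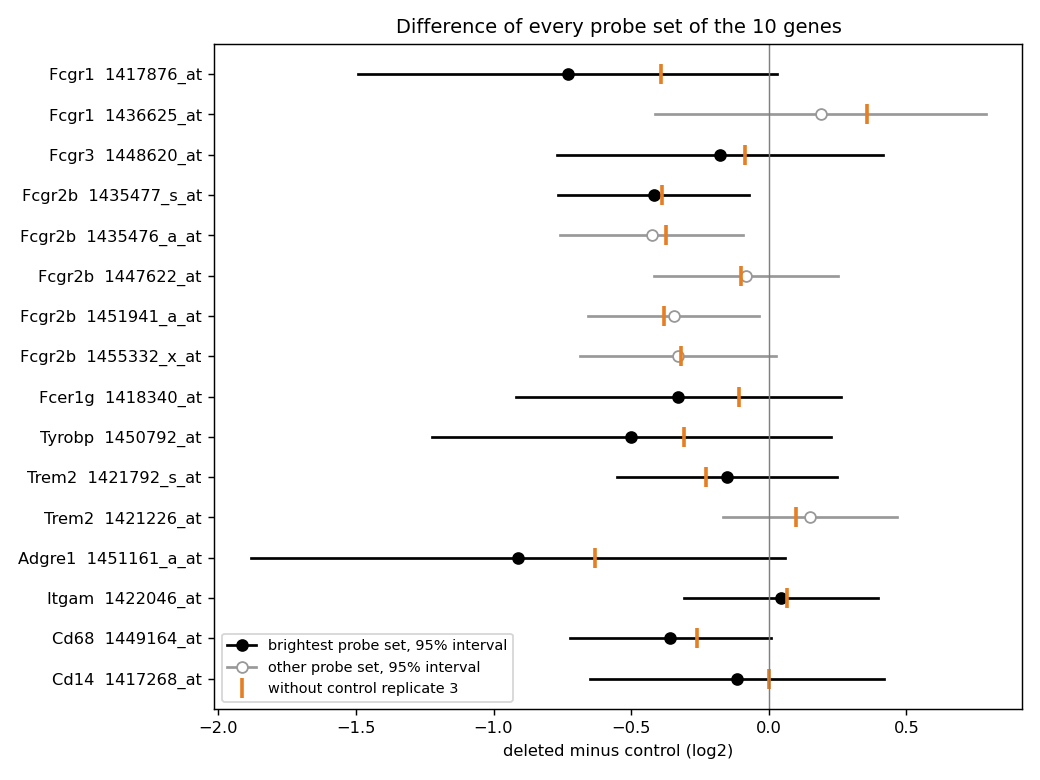
Deleted minus control difference (x axis, log2) for each of the 16 probe sets (y axis), with 95% intervals. Filled points are the brightest probe set of a gene and open grey points its others, and orange ticks give the difference without control replicate 3, which lies at -0.39 for Fcgr1 and for Fcgr2b.

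Fcer1g encodes the gamma chain shared by the activating Fc receptors. It read 8.92, 9.06 and 8.47 in deleted samples, against 8.79, 9.06 and 9.59 in control samples. Replicates 1 and 2 of both groups lay in the same range, and the third arrays stood at opposite ends. The difference was -0.33 (SE 0.25, 95% interval -0.92 to 0.26), which was -0.11 without control replicate 3 and -0.15 without deleted replicate 3.

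Tyrobp, on chromosome 7, encodes the adaptor DAP12 that serves Trem2 and a number of other myeloid and NK cell receptors. Its signal was 9.32, 10.39 and 9.52 in deleted samples and 10.01, 10.09 and 10.63 in control samples. Deleted replicates 1 and 3 lay below all control arrays, whereas deleted replicate 2 lay above control replicates 1 and 2. The means were 9.74 ± 0.56 in deleted samples and 10.24 ± 0.33 in control samples (SD, n = 3 each), with a difference of -0.50 (SE 0.31, 95% interval -1.22 to 0.23). It was -0.31 without control replicate 3, and -0.82 without deleted replicate 2. Neither adaptor passed the test.

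Trem2, on chromosome 17, encodes a receptor for lipids and apolipoproteins that signals through Tyrobp. Its brightest probe set read 7.33, 7.19 and 6.87 in deleted samples, against 7.30, 7.41 and 7.13 in control samples. The groups overlapped, and the third array was the low one in both. The difference was -0.15 (SE 0.17, 95% interval -0.55 to 0.25), or -0.23 without control replicate 3. The dimmer probe set read 5.29, 5.14 and 5.29 in deleted samples and 5.11, 5.17 and 4.99 in control samples, a difference of 0.15 (SE 0.13). Both probe sets of Trem2 were designed on the same sequence record and differed in sign, so no direction can be given for it.

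Adgre1, also on chromosome 17, encodes an adhesion receptor that marks mature mouse macrophages. It read 6.66, 7.59 and 6.07 in deleted samples, against 7.32, 7.49 and 8.24 in control samples. Deleted replicate 2 lay among the control arrays and the other deleted arrays lay below all of them. The means were 6.77 ± 0.77 in deleted samples and 7.68 ± 0.49 in control samples (SD, n = 3 each). The difference was -0.91 (SE 0.41, 95% interval -1.88 to 0.060), or 1.88-fold. Adgre1 was at -0.63 without control replicate 3, at -0.56 without deleted replicate 3 and at -1.32 without deleted replicate 2, so that its size depended on single arrays.

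Cd68, on chromosome 11, encodes a heavily glycosylated protein of lysosomal and endosomal membranes in macrophages. It read 8.42, 8.45 and 8.49 in deleted samples, against 8.57, 8.85 and 9.01 in control samples. Every deleted array lay below every control array, and the deleted arrays lay close together. The means were 8.45 ± 0.037 in deleted samples and 8.81 ± 0.22 in control samples (SD, n = 3 each), with a difference of -0.36 (SE 0.16, 95% interval -0.72 to 0.0092). Without control replicate 3 it was -0.26. Cd68 and Fcgr2b made 2 of 10 genes with the deleted arrays all below the control arrays, against 2.7% of all genes, and 0 of 10 had them all above.

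Itgam, on chromosome 7, encodes CD11b, the alpha chain of an integrin that binds complement fragments on myeloid cells. It read 3.54, 3.28 and 3.17 in deleted samples and 3.29, 3.23 and 3.33 in control samples. These values lie near the lower end of the scale, where signal is mostly background, and the groups overlapped. The difference was 0.045 (SE 0.15), was 0.067 without control replicate 3 and turned to -0.062 without deleted replicate 1.

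Cd14 encodes the co-receptor that hands bacterial lipopolysaccharide to Toll-like receptor 4. It read 11.44, 12.18 and 11.95 in deleted samples, against 11.75, 11.96 and 12.20 in control samples. The groups overlapped, and deleted replicate 1 lay below all other arrays. The difference was -0.12 (SE 0.23, 95% interval -0.65 to 0.42). It was -0.00051 without control replicate 3 and 0.093 without deleted replicate 1.

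The arrays of a group also differed among themselves in these genes. Control replicate 3 was the highest of the 6 arrays in 8 of 10 genes, which held for 26.9% of all genes. Deleted replicate 3 was the lowest in 7 of 10, against 19.1% of all genes. Averaged over the 10 genes, the deviation from each gene's own mean was -0.19, 0.07 and -0.43 on the deleted arrays, against -0.05, 0.15 and 0.44 on the control arrays. Deleted replicate 2 and control replicate 1 thus stood between the extremes, with their order crossed. The median difference of the 10 genes was -0.24 with control replicate 3 left out, -0.24 with deleted replicate 3 left out and -0.15 with both left out. The genes below 0 numbered 9, 8 and 7 in these settings, and the last was chosen after seeing the data. The RNA quality measure named above was highest on control replicate 3, and its part in the result was not tested.

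**Figure D3:**
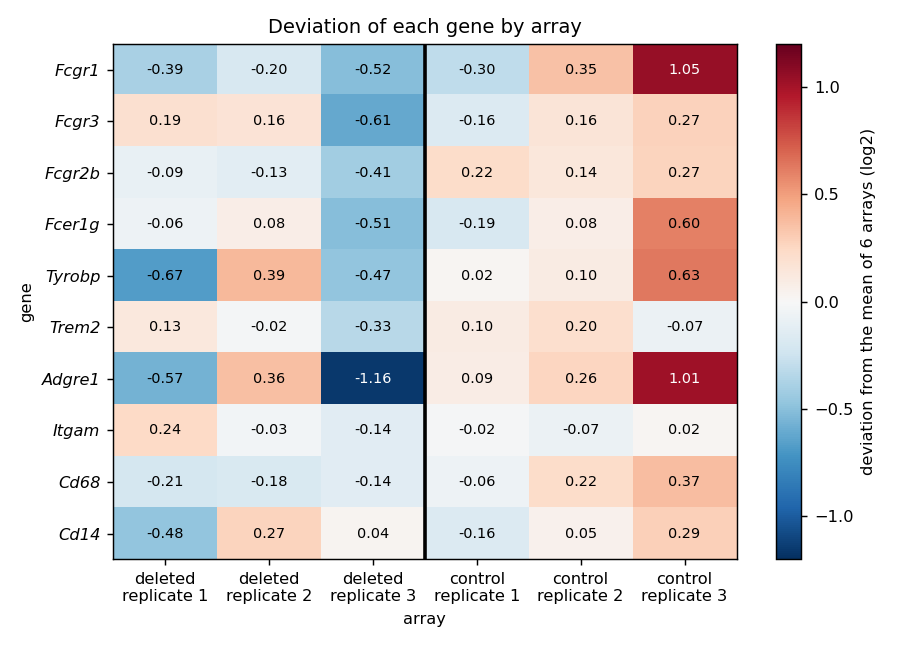
Deviation of each gene's brightest probe set (rows) from its mean over the 6 arrays, by array (columns), in log2 units, with the 3 deleted arrays left of the black line and the 3 control arrays right of it. Blue is below and red above the gene's mean. The third array of the deleted group is mostly blue and that of the control group mostly red, and in the Fcgr2b and Cd68 rows all deleted arrays are blue and lie below all control arrays.

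Among 11280 genes brighter than the median, the profile of Wfdc17 was the most like the mean of the 10 genes over the 6 arrays (Pearson's r = 0.99). Wfdc17, a small secreted protein of myeloid cells, read 10.25, 10.73 and 9.65 in deleted samples, against 10.48, 11.13 and 11.53 in control samples, a difference of -0.84 (SE 0.35). Kidins220, Surf1, Lad1, Ipmk, Col4a6, Psme4 and Zfp319 followed, with r between 0.98 and 0.99 and differences between -0.45 and -0.090. With 6 arrays such values are common, and 323 of these genes (2.86%) had r over 0.9.

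Genes that work beside the 10 were read from 9 lists, and 0 genes of any list passed an adjusted p of 0.05 by limma in either direction. Of 11 other Fc receptors measured, 6 were lower and the median was -0.045 (-0.0094 without control replicate 3). Fcmr, the receptor for IgM, differed by -0.52 (SE 0.24) and Fcrls, a receptor-like protein known from microglia, by -0.43 (SE 0.25), or -0.22 without control replicate 3, with overlap in both. Trim21, a cytosolic receptor for antibodies, differed by -0.19 and read 10.69, 10.68 and 10.73 in deleted samples, against 11.10, 10.75 and 10.84 in control samples, without overlap. Fcgr4, a further activating receptor for IgG of the mouse, averaged 5.50 ± 0.47 in deleted samples and 5.56 ± 0.43 in control samples (SD, n = 3 each), and its difference of -0.058 was 0.14 without control replicate 3.

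Below the receptors, 9 of 16 ITAM kinases and adaptors were lower, with a median of -0.020. Syk, the kinase that ITAMs recruit, differed by -0.031 (SE 0.26), or 0.18 without control replicate 3. The largest difference was that of Pik3ap1, an adaptor for phosphoinositide 3-kinase, at 8.82, 9.28 and 8.54 in deleted samples, against 9.27, 9.75 and 9.73 in control samples (difference -0.71, SE 0.23). Nckap1l, a subunit of the WAVE complex that drives actin, differed by -0.44 and Vav1, an exchange factor for Rac, by -0.39, and in both control replicate 3 was the highest array. Without that array Nckap1l was at -0.19, Vav1 at 0.055 and the median of the list at 0.099.

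Among 12 receptors and adaptors that stand beside Tyrobp and Trem2, 5 were lower and the median was 0.038 (0.0077 without control replicate 3), and all 12 had a mean below the median of all probe sets. Cd300lb, an activating receptor that signals through Tyrobp, read 5.05, 4.82 and 4.97 in deleted samples, against 5.13, 5.42 and 5.67 in control samples (difference -0.46, SE 0.18), and its groups did not overlap. Cd300ld, of the same family, differed by -0.39 without overlap, and Clec5a by 0.34 with overlap. Of 10 genes raised with Trem2 in lipid-associated macrophages, 5 were lower and the median was -0.0070 (-0.027 without control replicate 3). Gpnmb differed by 0.21, and the lysosomal enzymes Ctsd and Lipa by -0.18 and -0.17.

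Inhibitory ITIM receptors, the class of Fcgr2b, were lower in 10 of 12, with a median of -0.15, which was 0.014 without control replicate 3. Cd22, of B cells, differed by -0.71 (SE 0.53), Clec4a2, a lectin of dendritic cells and monocytes, by -0.29 and Cd72 by -0.23. In all of these, control replicate 3 was the highest array, and without it Cd22 was at -0.030, Clec4a2 at 0.12 and Cd72 at 0.21. Of 12 partners of Cd14 and the Toll-like receptors, 7 were lower and the median was -0.014 (0.11 without control replicate 3). The receptors Tlr6 and Tlr1 differed by -0.32 and -0.31 and Acod1, which makes itaconate, by -0.26. Without control replicate 3, Tlr6 was at -0.16, Tlr1 at 0.14 and Acod1 at -0.49.

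Of 9 beta2 integrins and ligands, the list around Itgam, 3 were lower and the median was 0.061 (0.092 without control replicate 3). Fermt3, which activates integrins in blood cells, differed by -0.61 (SE 0.42) and Itgb2, the beta chain that pairs with Itgam, by -0.28 (SE 0.28), whereas Jam3 differed by 0.25. Without control replicate 3, Fermt3 was at -0.28, Itgb2 at -0.00024 and Jam3 at 0.059. Of 10 lysosomal membrane proteins, the class of Cd68, 7 were lower with a median of -0.075 (-0.061 without control replicate 3). Laptm5, a leukocyte protein, differed by -0.51 (SE 0.36), Mcoln1 by -0.26 and Tmem192 by -0.17, and without that array Laptm5 was at -0.22 and Mcoln1 at -0.047. Of 9 adhesion receptors related to Adgre1, 4 were lower and the median was 0.038 (-0.0015 without control replicate 3). Adgre4 was at 0.34, Adgrl3 at -0.25 and Adgrg3 at -0.11, and without that array they were at 0.88, -0.58 and 0.039. The medians of these 9 lists thus ran from -0.15 to 0.061, against -0.34 for the 10 genes, a difference that was not tested. With each array left out in turn, the medians of the other Fc receptors and of the lysosomal membrane proteins stayed below 0, and those of the other 7 lists changed sign at least once.

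**Figure D4:**
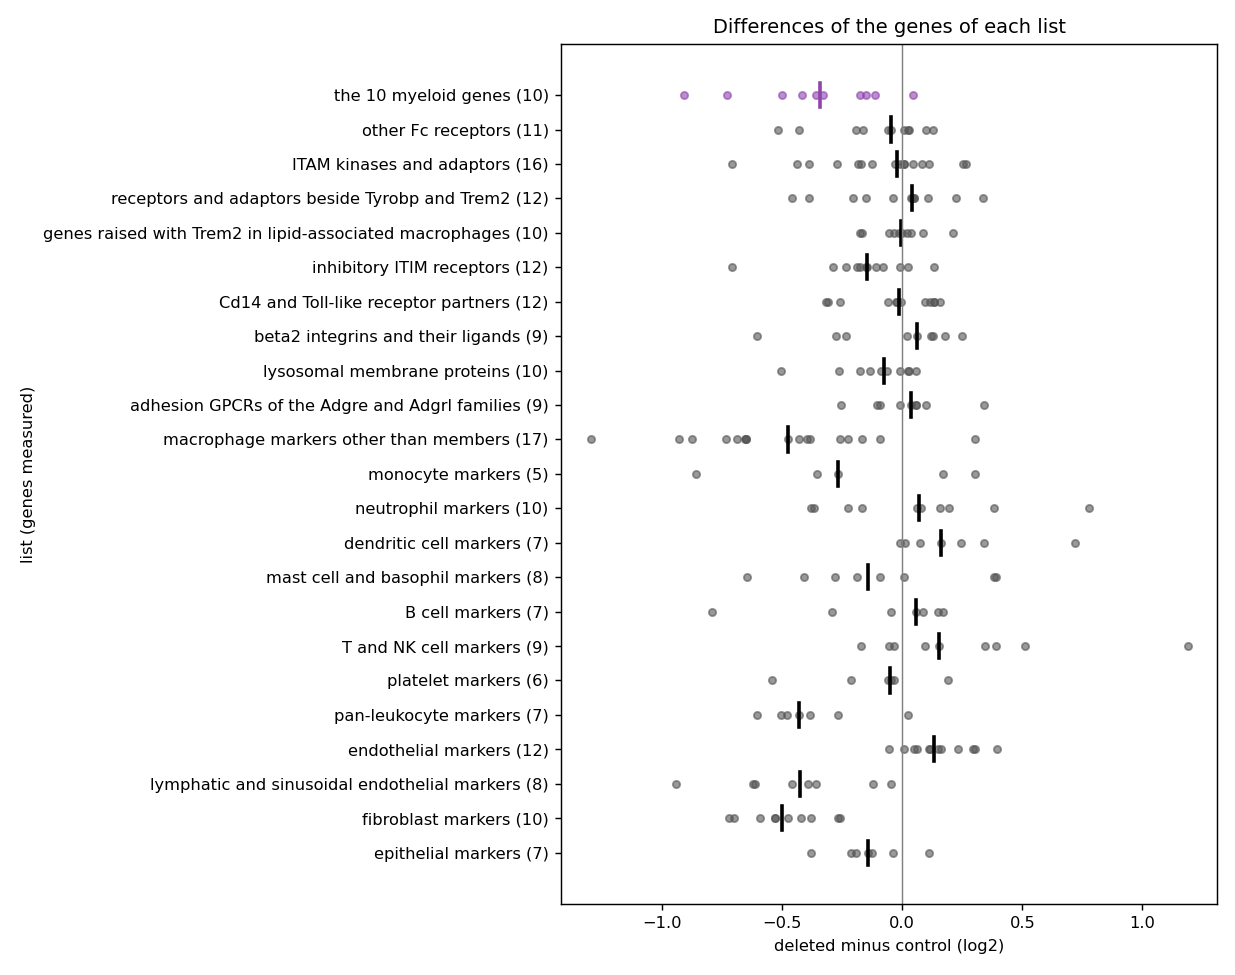
Deleted minus control difference (x axis, log2) of each measured gene (points) in the lists named on the y axis, with the number measured in brackets and the median as a bar. The 10 genes described here are in purple at the top, with a median of -0.34. The lists of macrophage, pan-leukocyte, lymphatic and sinusoidal, and fibroblast markers have medians between -0.50 and -0.42, and the endothelial list one of 0.13.

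Markers of several cell types were read beside the 10 genes, and their differences are given as group means only. No gene of the macrophage, monocyte, pan-leukocyte, endothelial, lymphatic and sinusoidal, or fibroblast lists passed limma's adjusted test in either direction. Of 17 macrophage markers other than these 10, 16 were lower, with a median of -0.47 (-0.40 without control replicate 3), and 6 had deleted arrays all below the control arrays, against 2.7% of all genes. Their summed signal ran from 13.61 to 13.94 (log2) on the deleted arrays and from 14.18 to 14.78 on the control arrays. C1qb, a chain of complement C1q, read 10.30, 11.57 and 10.38 in deleted samples, against 11.23, 11.97 and 12.93 in control samples (difference -1.30, SE 0.50, and -0.85 without control replicate 3). Mrc1, the mannose receptor, read 8.90, 8.54 and 8.18 in deleted samples, against 9.33, 9.04 and 10.04 in control samples (difference -0.93, SE 0.30). Of 5 monocyte markers, 3 were lower and 2 higher, and the median was -0.27 (-0.023 without control replicate 3). F13a1 was at -0.86 (-0.33 without deleted replicate 3) and Vcan at -0.36. The 2 higher were Plac8 at 0.17 and Chil3 at 0.30. Without the third array of both groups the median of this list was 0.0058. The summed signal of the 5 ran from 10.36 to 10.98 on the deleted arrays and from 10.98 to 11.38 on the control arrays. That sum rests mostly on Vcan and F13a1, the brightest of the list.

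Of 7 pan-leukocyte markers, 6 were lower, with a median of -0.43 that was -0.22 without control replicate 3 and -0.037 without the third array of both groups. Fermt3 and Laptm5, given above, had the largest differences of this list. Its summed signal ran from 13.65 to 13.97 on the deleted arrays and from 13.85 to 14.03 on the control arrays. That sum rests mostly on Lcp1, the brightest of the list, at 13.09 to 13.15 on the deleted arrays and 12.97 to 13.15 on the control arrays. Of 12 endothelial markers 1 was lower, with a median of 0.13 (0.058 without control replicate 3) and sums from 15.83 to 16.13 on the deleted arrays, against 15.63 to 16.03 on the control arrays. Pecam1, which encodes CD31, differed by 0.39 (SE 0.27) and Esam by 0.30 (SE 0.25), and without control replicate 3 they were at 0.16 and 0.032.

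The lymphatic and sinusoidal endothelial markers were lower in 8 of 8. Their median was -0.42 (-0.31 without control replicate 3 and -0.76 without control replicate 2). Their summed signal ran from 13.27 to 13.52 on the deleted arrays and from 13.39 to 13.74 on the control arrays. Reln differed by -0.94 (SE 0.32) and Lyve1, a hyaluronan receptor that macrophages can also carry, by -0.62 (SE 0.44). Fibroblast markers were lower in 10 of 10, with a median of -0.50 (-0.46 without control replicate 3). Dpt was at -0.72 with overlap (-0.28 without control replicate 1) and Lum at -0.70 without overlap. Of the 10, 4 had deleted arrays all below the control arrays, against 2.7% of all genes. The sums of the 10 ran from 13.78 to 14.06 on the deleted arrays and from 14.24 to 14.38 on the control arrays. S100a4, whose promoter drives the recombinase and which macrophages can also express, read 9.74, 10.22 and 10.10 in deleted samples, against 10.23, 10.07 and 10.47 in control samples (difference -0.24, SE 0.18). The part of each of these marker groups in the differences of the 10 genes was not tested.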

How the data were processed

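RNA of 6 CD31-sorted samples was amplified and hybridized to Affymetrix whole-genome mouse arrays. The deposited log2 values were made by the authors with RMA (version not given in the sources used here), which subtracts background, normalizes the arrays by quantiles and summarizes each probe set. Differences of dim probe sets are narrowed by RMA. No scaling was added, since array medians ran from 7.02 to 7.07. For the control samples the genotype, which names PyMT, was followed in place of a source field that states no oncogene.

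Of 45101 probe sets, 45037 were tested without a filter and 64 array controls were not. The platform annotation named 1 gene for 34945, several for 932 and none here for 9160, and 34741 were matched to RefSeq for current symbols. The groups were compared by lmFit and eBayes of limma 3.58.1 (two-sided, no covariate, R 4.3.3), adjusted by Benjamini-Hochberg over all tested probe sets, and the steps were tested on simulated data. No set test was run. The members and lists were chosen with earlier results of these data known. The rule named all 10 genes, Ets2, S100a4, the 3 genes with the largest difference of each pathway list, 2 of each marker list and the 8 genes with the most similar profile. Syk, Fcgr4, Lcp1, Plac8, Chil3, S100a8, Mpo, Mcpt8 and Ms4a2 were named outside it, after their values were seen. Alternatives were other scalings, probe set choices, a filter, priors, array weights, an unmoderated test, blocks and leaving out each array. Leaving out the third array of both groups was added after seeing the data. A search of protein sequences was not run. Any pair of arrays had at most 0.218% equal values.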

Additional observations from a re-analysis of the deposited data

How the results depend on the processing

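With 3 arrays a group, the intervals of most of the 10 genes spanned differences in both directions. No gene of the 10 passed an adjusted p of 0.05 or 0.1 by limma or by the unmoderated test in any of 17 alternatives, and the smallest adjusted p was 0.623. Of 168 comparisons of a single gene with an alternative, 160 kept the sign and side of the threshold and 8 turned the sign. The filter, the prior and the unmoderated test cannot change a difference, nor can the mean of all probe sets for a gene with 1. Such comparisons could not turn a sign and are among the 160, so this count is no measure of stability. The fixed replicate block and the third array of both groups left out, given below, yield the same differences but were counted separately. Trem2 was at 0.15 with probe sets ending in _x_at or _s_at left out. When each array was left out, Fcgr3 ran from -0.32 to 0.086 (the positive end without deleted replicate 3), Itgam from -0.062 (without deleted replicate 1) to 0.13 and Cd14 from -0.28 to 0.093 (without deleted replicate 1). The number of genes at an unadjusted p under 0.05, 1 in the test as reported (Fcgr2b), was 2 with the mean of all probe sets (Fcgr2b and Cd68), 0 with a trended and robust prior and 4 with array weights (Fcgr1, Fcgr2b, Adgre1 and Cd68). Over all probe sets 2.07% were at such a p as reported, 2.06% with that prior and 7.87% with array weights, against 2.25% of all genes with the mean of their probe sets. The number ran from 0 to 3 when each array was left out, with 0 without deleted replicate 3 or control replicate 3, 2 without control replicate 1 (Fcgr1 and Cd68) and 3 without deleted replicate 2 (Fcgr2b, Tyrobp and Adgre1), while 3.23%, 2.14%, 2.80% and 3.60% of all probe sets were. The number at a fold change over 2 and p under 0.05 ran from 0 to 1, with Fcgr1 called without control replicate 1 (-1.07) and Adgre1 without deleted replicate 2 (-1.32). The number with all deleted arrays below all control arrays ran from 2 to 5, with 5 without deleted replicate 2 and 4 without control replicate 1, while 9.06% and 7.06% of all genes did so. The filter on dim probe sets removed Fcgr1 and Itgam. Probe sets at the study's thresholds numbered 58 as reported, 15 with that filter, 15 of 18193 genes with the mean of all probe sets, 152 with array weights, 18 with the unmoderated test and 61 to 191 when each array was left out. The cause of these changes was not tested.

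The sample identifiers share 2 numbers between the groups, whose meaning is not stated. With this number as a fixed replicate block, which leaves the mean of the 2 differences within a number, Fcgr3 was at 0.18, Fcer1g at 0.065, Adgre1 at -0.28 and Fcgr1 at -0.32, 0 genes were at an unadjusted p under 0.05 (8.14% of all probe sets) and 317 probe sets were at the study's thresholds. Within the first shared number 6 genes were lower and within the second 5, with 3 lower in both. The matching shares of all genes were not computed, so these counts cannot show whether the genes described here differ from the rest. With the number as a random block the correlation was 0.102 and 64 probe sets were at those thresholds. The numbers of the third arrays are not shared, so leaving out the third array of both groups gave the same differences as the fixed block. Fcgr3 was again at 0.18 and Fcer1g at 0.065. In that setting 0 genes were at an unadjusted p under 0.05 (5.31% of all probe sets) and 253 probe sets at the study's thresholds.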

Other observations

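Markers of further cell types were read as well, and no gene of these lists passed an adjusted p of 0.05 by limma. Of 9 T and NK cell markers, 3 were lower and the median was 0.15. Gzma, a granule protease, read 6.14, 10.27 and 6.39 in deleted samples, against 7.35, 6.40 and 5.48 in control samples, so that deleted replicate 2 alone was high. Its difference of 1.19 was -0.15 without that array and 0.72 without control replicate 3. Cd8a differed by 0.51, or 0.25 without deleted replicate 2. Of 7 dendritic cell markers 1 was lower, with a median of 0.16, Ccr7 at 0.72 (0.43 without control replicate 3) and Itgae at 0.34 (0.21 without control replicate 3 and -0.019 without deleted replicate 2). Of 10 neutrophil markers, which are myeloid as well, 4 were lower and the median was 0.070. S100a9 read 9.31, 8.69 and 9.32 in deleted samples, against 7.78, 8.19 and 9.01 in control samples. Its difference was 0.78 (SE 0.33), and Camp differed by 0.38. S100a8 went the other way at -0.37, as did Mpo at -0.38 (-0.10 without control replicate 3).

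Of 8 mast cell and basophil markers, 5 were lower and the median was -0.14. Mcpt4 and Tpsb2, proteases of mast cells, differed by -0.64 (SE 0.26) and -0.41 (SE 0.18). Mcpt8, at 0.39 without overlap, and Ms4a2, at 0.38 with overlap, went the other way. Of these 8 genes, 7 had a mean below the median of all probe sets. Of 7 B cell markers, 3 were lower with a median of 0.056. Ms4a1 differed by -0.79, with control replicate 3 at 7.44 and the other 5 arrays at or below 5.87, and Blk by -0.29. Without control replicate 3 they were at -0.16 and -0.19. Of 6 platelet markers, 5 were lower with a median of -0.053, with Gp1bb at -0.54 and Pf4 at -0.21 (-0.31 and -0.11 without control replicate 3). Of 7 epithelial markers, 6 were lower with a median of -0.14, with Krt5 at -0.38 (-0.039 without control replicate 3) and Cdh1 at -0.22. The summed signal of the epithelial list ran from 15.55 to 16.00 (log2) on the deleted arrays and from 15.64 to 15.94 on the control arrays. Without control replicate 3 the medians were 0.15 for T and NK cell markers, 0.22 for dendritic cell, 0.095 for neutrophil, -0.019 for mast cell and basophil, 0.078 for B cell, -0.14 for platelet and -0.039 for epithelial markers.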
